A study of Homo sapiens with 12 samples.

Results

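10 genes of the peroxide and superoxide defence were followed in the FaDu transcriptome: the peroxiredoxins PRDX1, PRDX2, PRDX3, PRDX5 and PRDX6, thioredoxin (TXN), thioredoxin reductase 1 (TXNRD1), the superoxide dismutases SOD1 and SOD2, and catalase (CAT). They were taken by name from the 58288 genes quantified, and all 10 were among the 15973 genes that were tested. FaDu is an established human line of hypopharyngeal squamous cell carcinoma, compared here as a wild-type line (WT) and a STING knockout line (KO), which the study's methods describe as carrying Cas9 with a non-targeting guide RNA and with a guide RNA against STING. The 4 groups, with 3 libraries each, were unirradiated WT, unirradiated KO, WT irradiated with 4 daily fractions of 2 Gy (WT + RT) and KO irradiated in the same way (KO + RT). Cells of both lines were virally transduced and drug selected, so the controls carry these changes too. Whether the KO line is 1 clone, and how long after the last fraction RNA was taken, are not given in the sources used here. Loss of STING stands below for KO against WT. With a single line on each side, its effect cannot be told apart from other differences between the lines. The labels do not say that replicates came from separate cultures, so the p-values measure only the spread between these libraries.

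Levels are given as TPM, the share of a library's transcripts scaled to 1000000, which is per transcript length and can therefore be compared between genes. TPM keeps no read depth, so the counting error of each value is unknown. STING is listed under its older symbol TMEM173, and it stood at 21.7, 23.5 and 21.1 TPM in the WT libraries and at 5.18, 5.29 and 6.96 TPM in the KO libraries. With radiation it stood at 26.1, 21.4 and 21.7 TPM in WT and at 6.35, 7.41 and 7.08 TPM in KO, so that no KO library reached a WT library. All 8 epithelial markers (KRT5, KRT14, KRT6A, KRT17, TP63, SFN, EPCAM and CDH1) had a mean of at least 1 TPM, with a summed level of 7310 to 10100 TPM per library. Of the markers of other cell types, 1 of 3 for leukocytes (CD14), 1 of 2 for endothelium (VWF) and 1 of 4 for fibroblasts (COL1A1) did so. Their summed levels were 2.62 to 4.35, 2.65 to 4.49 and 6.40 to 9.36 TPM, with PTPRC and PECAM1 near 0.

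Superoxide is turned into hydrogen peroxide by the superoxide dismutases, SOD1 in the cytosol and SOD2 in the mitochondrial matrix. Peroxide is then removed by catalase, mostly in peroxisomes, and by the peroxiredoxins, in which a cysteine is oxidised by the peroxide and has to be reduced again. Thioredoxin does this for most peroxiredoxins, and thioredoxin reductase renews thioredoxin with electrons from NADPH. Ionizing radiation produces oxygen radicals in water, and the study asked how loss of STING relates to reactive oxygen species in irradiated cells.

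Sequence before the transcription start is shown for CAT, the member that changed with radiation, and for TXNRD1. Among the 7 members whose promoter windows were found, the 2 starts of TXNRD1 were the only ones with an antioxidant response core. RefSeq promoter windows of 250 bases on GRCh38.p14 were found for 7 members, 12 windows in all, and none was found for PRDX1, PRDX6 and SOD1. Capitals mark, on either strand, the antioxidant response core TGACNNNGC, the interferon response core (GAAA and GAAA with any 2 bases between them), the GC box GGGCGG and the CCAAT box CCAAT, which did not overlap each other in these windows.
CAT, chr11:34438684-34438933, plus strand: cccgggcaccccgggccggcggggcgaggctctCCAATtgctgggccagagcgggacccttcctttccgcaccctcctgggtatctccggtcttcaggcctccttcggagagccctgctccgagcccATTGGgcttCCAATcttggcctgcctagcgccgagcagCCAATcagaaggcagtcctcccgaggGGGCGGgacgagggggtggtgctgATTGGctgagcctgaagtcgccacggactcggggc
TXNRD1, chr12:104215529-104215778, plus strand: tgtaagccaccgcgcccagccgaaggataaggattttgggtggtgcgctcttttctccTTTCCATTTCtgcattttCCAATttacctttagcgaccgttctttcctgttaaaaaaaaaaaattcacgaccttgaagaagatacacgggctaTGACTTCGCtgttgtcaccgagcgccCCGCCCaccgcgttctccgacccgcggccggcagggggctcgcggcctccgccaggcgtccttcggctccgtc
TXNRD1, chr12:104286782-104287031, plus strand: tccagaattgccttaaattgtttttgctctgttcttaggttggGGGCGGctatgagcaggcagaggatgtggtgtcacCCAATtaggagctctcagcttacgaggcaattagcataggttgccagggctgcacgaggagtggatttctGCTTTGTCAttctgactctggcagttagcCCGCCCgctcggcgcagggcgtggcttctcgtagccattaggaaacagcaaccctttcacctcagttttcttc

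The CAT window held 5 CCAAT boxes and 1 GC box, with the CCAAT boxes starting 217, 123, 114, 85 and 35 bases before the start site, and neither response core. The antioxidant response core is the sequence to which NRF2, an inducer of antioxidant genes, is known to bind. It lay 99 and 102 bases before the 2 TXNRD1 starts, and the first of these windows also held the interferon response core, 192 bases before the start. Among 35116 promoter windows of this length, 10.9% held the antioxidant response core, 3.02% the interferon response core, 42.6% the GC box and 32% the CCAAT box. The GC box was present in all 12 windows of the members and the CCAAT box in 5. These windows came from only 7 members, and SOD2, PRDX5 and TXNRD1 each had more than 1, so they are not separate genes. These matches describe letters only.

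**Figure D1:**
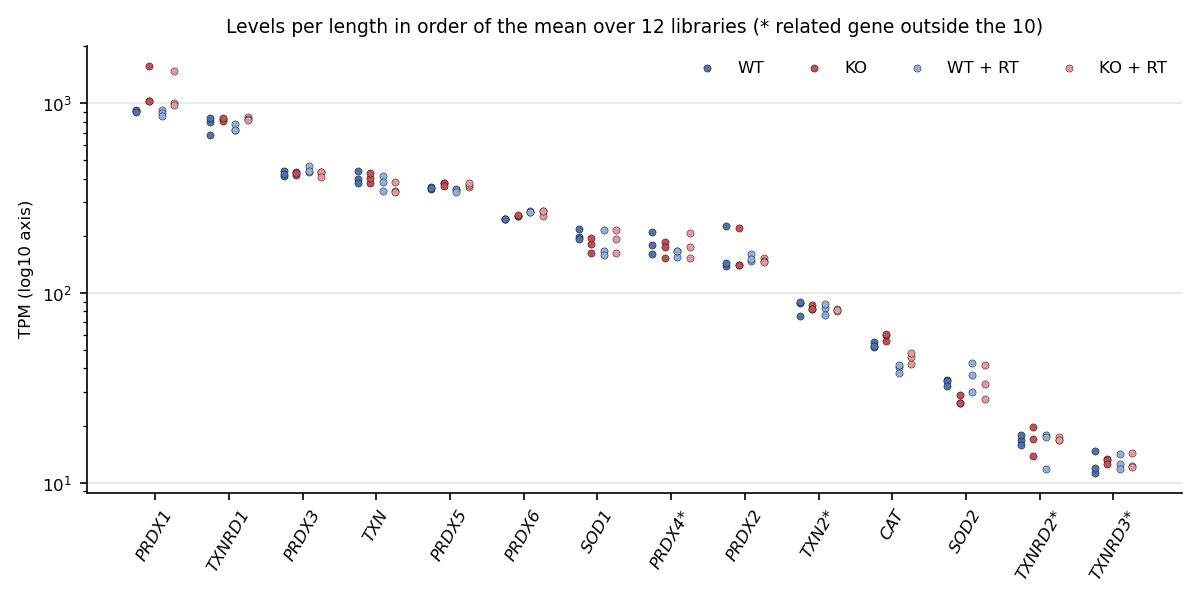
TPM on a log10 axis for the 10 genes and 4 related genes (marked *), in order of their mean over 12 libraries, with 1 point per library coloured by group. PRDX1 lies highest, with 2 KO libraries at 1472 and 1572 TPM, and CAT and SOD2 lie lowest of the 10.

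PRDX1, a cytosolic peroxiredoxin, was the most abundant of the 10 transcripts in every library, at 861 to 1572 TPM, and ranked between place 71 and place 137 of all genes. TXNRD1 followed at 683 to 842 TPM, and PRDX3, the peroxiredoxin of mitochondria, stood at 406 to 467 TPM. TXN stood at 341 to 439, PRDX5 at 341 to 380 and PRDX6 at 244 to 271 TPM. The lower part of the order was SOD1 at 158 to 217 TPM, PRDX2 at 138 to 225 TPM, CAT at 37.8 to 61.0 TPM and SOD2 at 26.4 to 42.6 TPM. The order of the group means was the same in WT, KO and WT + RT, and in KO + RT it differed only in that PRDX5 stood above TXN. Neighbours whose libraries overlapped were PRDX3 and TXN in both unirradiated groups, TXN and PRDX5 in every group but WT, SOD1 and PRDX2 in every group but KO + RT, and CAT and SOD2 in WT + RT alone. All other neighbours were separated by their libraries. The 10 transcripts together made up 0.336% to 0.423% of a library, and PRDX1 alone contributed 24.7% to 37.1% of that sum.

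Among related genes outside the 10, the mitochondrial thioredoxin TXN2 stood at 75.6 to 89.0 TPM, below every value of TXN, and the mitochondrial reductase TXNRD2 at 11.8 to 19.6 TPM, below every value of TXNRD1. PRDX4, the peroxiredoxin of the endoplasmic reticulum, stood at 152 to 210 TPM, in the range of SOD1 and PRDX2. SOD3, the secreted superoxide dismutase, was listed at 0 in all 12 libraries. The ratio of SOD1 to SOD2 varied from 3.71 to 7.39 between libraries.

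Catalase was the member called with radiation in both lines. CAT was measured at 52.1, 55.1 and 52.6 TPM in WT and at 40.8, 41.4 and 37.8 TPM in WT + RT. In the knockout line it was measured at 55.5, 59.9 and 61.0 TPM without radiation and at 42.4, 45.9 and 48.1 TPM with it. All 6 irradiated libraries lay below all 6 unirradiated ones, which was so for 2.13% of all genes tested.

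In WT the mean of CAT went from 53.3 ± 1.60 TPM (SD, n = 3) to 40.0 ± 1.92 TPM, a difference of -24.9%. On the log2(TPM + 1) scale, which slightly understates changes of low values, CAT fell by 0.41 (SE 0.06, 95% interval -0.54 to -0.27, adjusted p = 0.0064 in limma over all genes tested). In KO the mean went from 58.8 ± 2.89 to 45.5 ± 2.88 TPM, a difference of -22.6%, and CAT fell by 0.36 (SE 0.06, 95% interval -0.50 to -0.23, limma adjusted p = 0.011). The call in KO was lost when only the 6 KO libraries were fitted (limma adjusted p = 0.078) and narrowly when KO replicate 3 was left out (log2 fold change -0.34, limma adjusted p = 0.051). The 2 responses were compared directly by the interaction term, which was 0.04 (95% interval -0.15 to 0.23, limma adjusted p = 0.96). With 3 libraries a group, any difference between the lines within that interval remained compatible with these data.

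**Figure D2:**
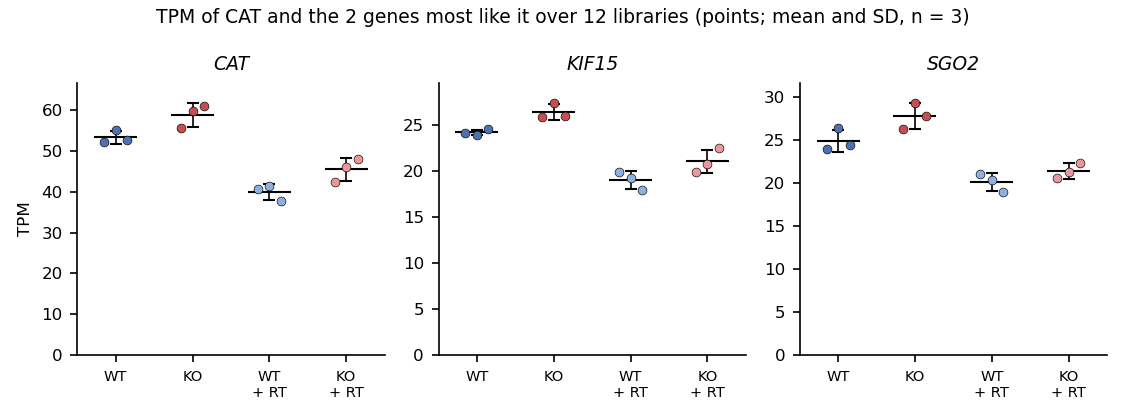
TPM of CAT, KIF15 and SGO2 in each library (points), with the group mean and SD (bars, n = 3). For each of the 3 genes the 6 irradiated libraries lie below the 6 unirradiated ones.

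For CAT, the 3 KO libraries lay above the 3 WT libraries both without radiation (log2 fold change 0.14, SE 0.06, limma adjusted p = 0.34) and with it (0.18, SE 0.06, limma adjusted p = 0.16), and neither difference passed the threshold of 0.05. Averaged over both conditions, a contrast chosen after seeing the data, the difference was 0.16 (SE 0.04, limma adjusted p = 0.054). It passed the threshold with a filter at a mean TPM of at least 5 (limma adjusted p = 0.043) and under median-of-ratios and quantile scaling (limma adjusted p = 0.029 and 0.030). These were the only 3 of 7 such alternatives to pass, with limma adjusted p up to 0.079 in the rest. With 1 library left out, 2 of 12 fits passed (limma adjusted p from 0.036 to 0.12). CAT KO + RT libraries stayed below every unirradiated WT library.

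The genes whose pattern over the 12 libraries was most like that of CAT were KIF15, a mitotic kinesin, with a Pearson r of 0.98, and SGO2, a protector of centromeric cohesion, with 0.976. KIF15 had means of 24.2, 26.4, 19.0 and 21.0 TPM in WT, KO, WT + RT and KO + RT, and SGO2 had means of 24.9, 27.8, 20.1 and 21.4 TPM. KIF15 fell by 0.34 with radiation in WT and by 0.31 in KO (limma adjusted p = 0.014 and 0.019), and SGO2 fell by 0.30 and 0.36 (limma adjusted p = 0.035 and 0.015). These genes were picked for their likeness among 15973, all points share the same libraries, and the r is a description.

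None of the other 9 members passed the threshold with radiation in either line. CAT was thus 1 of 10 members called in WT, where 3.74% of all genes tested were called and 1.50% were called lower, and 1 of 10 in KO, where 3.69% were called and 1.70% were called lower. In the interaction no member was called by limma, none had an unadjusted p under 0.05, and of all genes tested 0.0188% were called and 6.61% had an unadjusted p under 0.05. Interaction terms of the members lay between -0.08 for TXN and 0.25 for SOD1. An unadjusted p under 0.05 was found for 2 of 10 members in WT, against 18.2% of all genes, and for 1 of 10 in KO, against 18.1%. The median log2 fold change of the members with radiation was -0.05 in WT and -0.01 in KO, against 0.02 and 0.02 for all genes. Libraries did not overlap between irradiated and unirradiated cells for 3 members in WT (PRDX5, PRDX6 and CAT), where 24.8% of all genes did not, and for CAT alone in KO, where 24.3% did not.

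**Figure D3:**
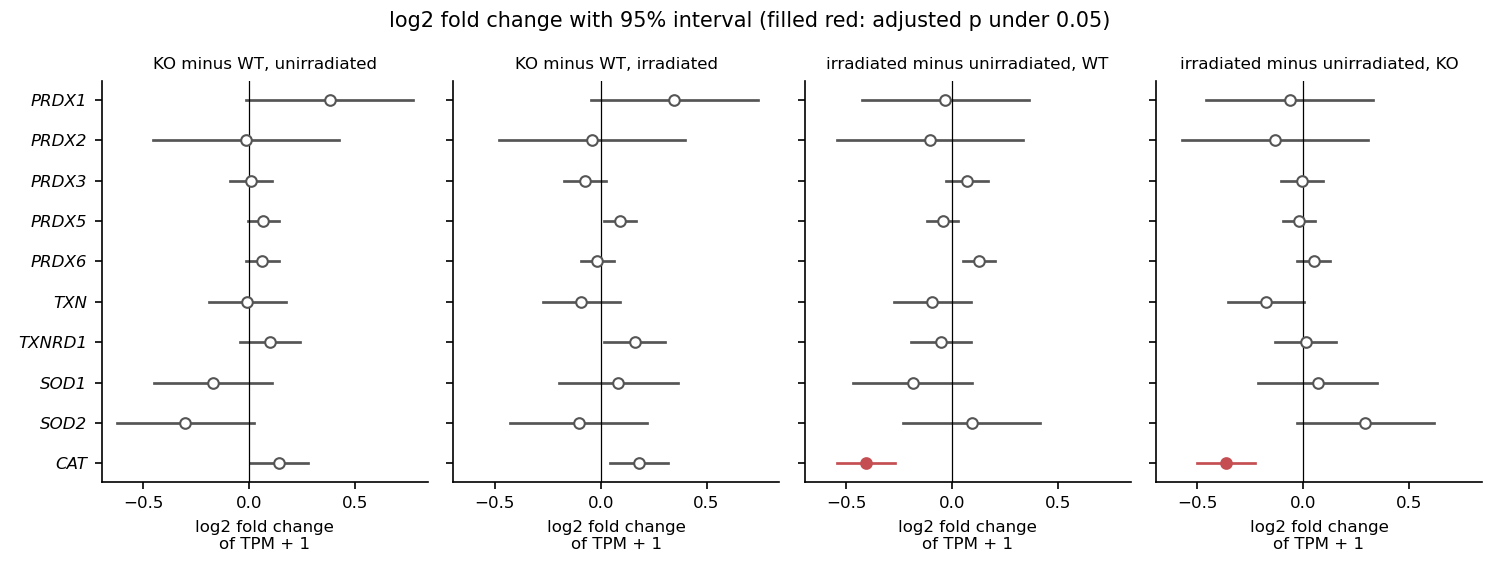
Log2 fold change of TPM + 1 (points) with its 95% interval (bars) for the 10 genes in 4 comparisons, with adjusted p under 0.05 in filled red. CAT is filled in both radiation comparisons and no gene is filled in the KO comparisons.

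PRDX6, the peroxiredoxin with a single active cysteine that works with glutathione in place of thioredoxin, stood at 244, 246 and 244 TPM in WT and at 269, 266 and 267 TPM in WT + RT. The 2 groups did not overlap, and their SDs were 0.864 and 1.75 TPM. The log2 fold change was 0.13 (SE 0.03, 95% interval 0.05 to 0.21), with a limma adjusted p of 0.078. KO libraries stood at 255, 254 and 257 TPM, and KO + RT libraries at 269, 253 and 271 TPM, where replicate 2 lay just below the 3 unirradiated KO libraries (log2 fold change 0.05, limma adjusted p = 0.51). Averaged over both lines, again a contrast chosen after seeing the data, PRDX6 was 0.09 higher with radiation (SE 0.02, limma adjusted p = 0.048), and CAT fell by 0.38 (SE 0.04, limma adjusted p = 4.6e-04), where 10.2% of all genes were called. The PRDX6 call was lost in 15 alternatives, among them leaving out any single library but KO + RT replicate 2, and CAT kept its call in all of them.

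The other peroxiredoxins gave no call with radiation. PRDX1, whose values are given with the KO comparison, differed by -0.03 in WT and -0.06 in KO on the log2 scale. PRDX3 stood at 412, 441 and 422 TPM in WT and at 467, 436 and 438 TPM in WT + RT, with 435, 417 and 428 TPM in KO and 435, 433 and 406 TPM in KO + RT. Its log2 fold changes with radiation were 0.07 and -0.01, with limma adjusted p of 0.45 and 0.95. PRDX5, which is found in mitochondria, peroxisomes and cytosol, went from 355, 364 and 357 TPM to 353, 348 and 341 TPM in WT, a log2 fold change of -0.04 (limma adjusted p = 0.55).

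PRDX2, a cytosolic peroxiredoxin abundant in red cells, differed more by replicate than by group. It stood at 138, 143 and 225 TPM in WT and at 141, 140 and 219 TPM in KO, so that replicate 3 lay far above the others in both unirradiated groups. Irradiated libraries stood at 148, 161 and 150 TPM in WT and at 153, 148 and 145 TPM in KO. Its log2 fold change with radiation was -0.11 in WT and -0.13 in KO, and it became 0.12 without WT replicate 3 and 0.08 without KO replicate 3. HIF1A, a hypoxia-response factor and one of the 2 genes most like PRDX2 (r = 0.91), was also highest in those 2 libraries, at 215 and 226 TPM against 156 to 175 TPM in the other 10.

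Thioredoxin and its reductase gave no call with radiation. TXN stood at 399, 439 and 378 TPM in WT, 380, 401 and 428 TPM in KO, 413, 385 and 344 TPM in WT + RT and 345, 341 and 383 TPM in KO + RT. The log2 fold change with radiation was -0.09 in WT (limma adjusted p = 0.62) and -0.18 in KO (95% interval -0.36 to 0.0049, limma adjusted p = 0.29), and the groups overlapped in both. TXNRD1 with radiation differed by -0.05 in WT and 0.01 in KO on the log2 scale.

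Neither superoxide dismutase passed the threshold with radiation. SOD1 stood at 217, 198 and 192 TPM in WT and at 166, 213 and 158 TPM in WT + RT, which is -0.18 on the log2 scale (SE 0.13) with an adjusted p of 0.50 in limma. In KO it stood at 163, 181 and 195 TPM, and in KO + RT at 163, 191 and 214 TPM. SOD2 stood at 34.8, 34.3 and 32.3 TPM in WT, at 28.8, 26.4 and 26.4 TPM in KO, at 30.1, 36.7 and 42.6 TPM in WT + RT and at 27.5, 33.0 and 41.6 TPM in KO + RT. Both irradiated groups were wide, with SDs of 6.25 and 7.11 TPM against 1.32 and 1.38 TPM without radiation. The log2 fold change of SOD2 with radiation was 0.09 in WT and 0.29 in KO (SE 0.15 for both, limma adjusted p = 0.80 and 0.33).

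**Figure D4:**
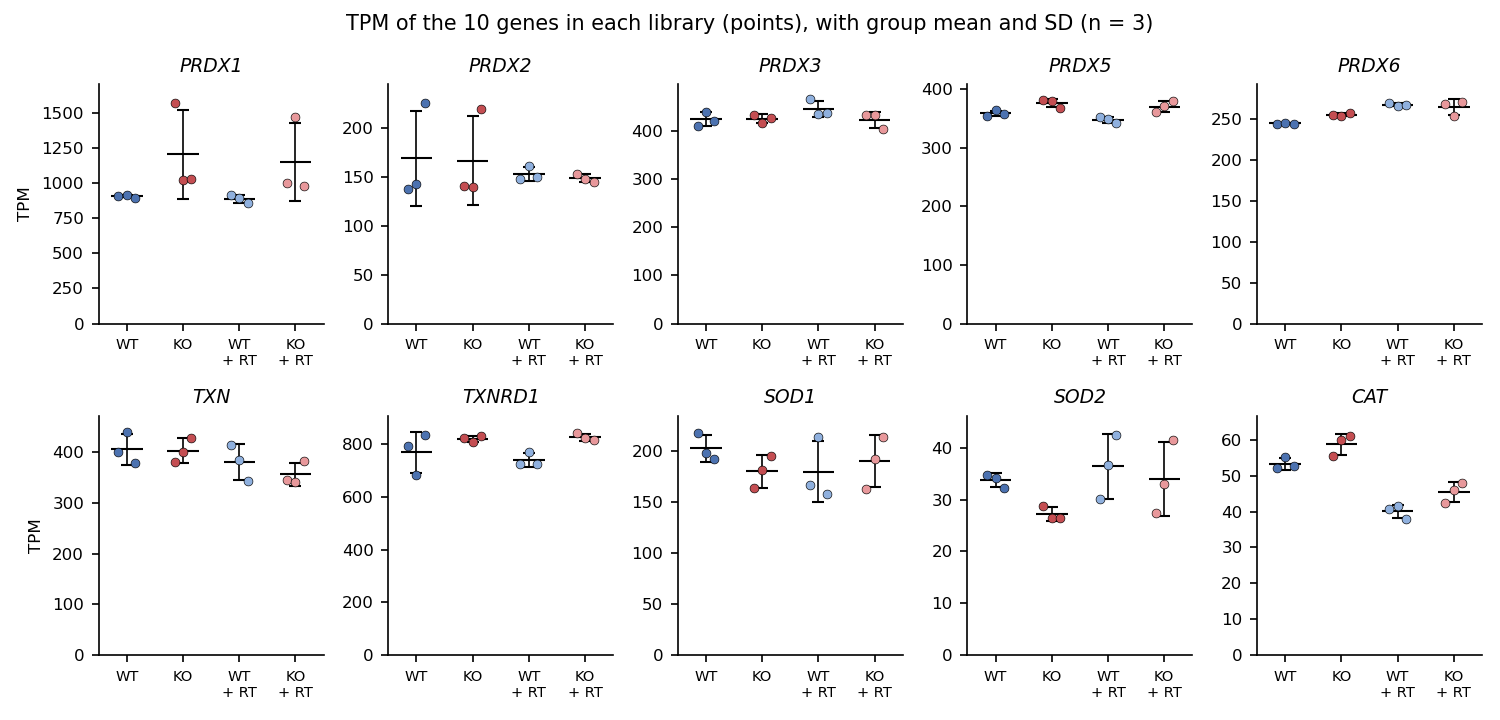
TPM of each of the 10 genes in each library (points), with the group mean and SD (bars, n = 3), on axes that start at 0. PRDX1 in KO and KO + RT and PRDX2 in WT and KO each have 1 library far above the other 2, whereas CAT separates by radiation.

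Loss of STING called no member in either condition in limma, where 1.73% of all genes tested were called without radiation and 3.59% with it. At an unadjusted p under 0.05 there were 1 of 10 members without radiation, against 14.3% of all genes, and 3 of 10 with it, against 17.9%. Averaged over both conditions no member was called, against 7.43% of all genes, and 4 members had an unadjusted p under 0.05, against 21.7%. Libraries of KO and WT did not overlap for 5 members without radiation (PRDX1, PRDX5, PRDX6, SOD2 and CAT), where 20.6% of all genes did not. With radiation this was so for 5 members (PRDX1, PRDX3, PRDX5, TXNRD1 and CAT), where 24.1% did not. The median log2 fold change of the members was 0.03 in both conditions, against -0.02 for all genes in both.

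For PRDX1, WT libraries stood at 911, 917 and 898 TPM and WT + RT libraries at 915, 893 and 861 TPM. KO libraries stood at 1572, 1022 and 1027 TPM and KO + RT libraries at 1002, 1472 and 980 TPM. All 6 KO libraries lay above all 6 WT libraries, which 1.19% of all genes tested also did in that direction, and 1 library in each KO group stood far above its replicates.

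The mean of PRDX1 was 1207 ± 316 TPM in KO against 909 ± 9.93 TPM in WT, and 1151 ± 278 TPM in KO + RT against 889 ± 27.5 TPM in WT + RT. The log2 fold change was 0.38 without radiation (SE 0.18, 95% interval -0.02 to 0.77, limma adjusted p = 0.37) and 0.35 with it (SE 0.18, limma adjusted p = 0.35). It became 0.17 without KO replicate 1 and 0.16 without KO + RT replicate 2. Averaged over both conditions it was 0.36 (SE 0.13, limma adjusted p = 0.12). RABGGTB, a subunit of the enzyme that prenylates RAB proteins, was the gene most like PRDX1 (r = 0.925) and stood highest in the same 2 libraries, at 160 and 165 TPM against 123 to 144 TPM in the others. The other 4 peroxiredoxins together summed to 1149 to 1272 TPM over all 12 libraries.

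PRDX5 and TXNRD1 were slightly above WT in KO, and neither passed the threshold. PRDX5 stood at 380, 379 and 367 TPM in KO and at 360, 371 and 379 TPM in KO + RT, above the WT values given before in both conditions. Its log2 fold change was 0.07 without radiation (limma adjusted p = 0.41), 0.09 with it (SE 0.03, limma adjusted p = 0.19) and 0.08 averaged (SE 0.02, limma adjusted p = 0.077). The averaged difference passed the threshold under median-of-ratios and quantile scaling (limma adjusted p = 0.027 and 0.031). These were the only 2 of 7 such alternatives to pass, with limma adjusted p up to 0.19 in the rest. With 1 library left out, 0 of 12 fits passed (limma adjusted p from 0.075 to 0.15). FH, the fumarase of the citric acid cycle, was the gene most like PRDX5 (r = 0.951).

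TXNRD1 stood at 792, 683 and 835 TPM in WT and at 823, 810 and 832 TPM in KO, which overlapped. With radiation it stood at 724, 773 and 725 TPM in WT and at 842, 824 and 817 TPM in KO, which did not (log2 fold change 0.16, SE 0.06, 95% interval 0.02 to 0.30, limma adjusted p = 0.22). Averaged over both conditions it was 0.13 (limma adjusted p = 0.12).

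SOD2 had the most negative difference between KO and WT among the members. Its 3 unirradiated KO libraries lay below the 3 WT libraries, with a log2 fold change of -0.30 (SE 0.15, 95% interval -0.63 to 0.02, limma adjusted p = 0.38). With radiation the groups overlapped, with a log2 fold change of -0.10 (limma adjusted p = 0.77). The remaining members gave log2 fold changes without radiation of -0.02 for PRDX2, 0.01 for PRDX3, 0.06 for PRDX6, -0.01 for TXN and -0.17 for SOD1. With radiation these were -0.04, -0.07, -0.02, -0.09 and 0.08.

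Of a wider list of 27 genes of the thioredoxin, glutaredoxin and superoxide systems, 26 were tested. In irradiated cells 1 of 26 was called for KO against WT, where 3.59% of all genes were called. Radiation called 1 of 26 in WT and 1 of 26 in KO, where 3.74% and 3.69% of all genes were called. These counts are close to the shares of all genes. SESN3, a sestrin that is known to be induced by FOXO factors, was the gene called with loss of STING in irradiated cells. It stood at 6.67, 6.59 and 5.94 TPM in WT + RT and at 8.91, 9.46 and 8.55 TPM in KO + RT, which did not overlap (log2 fold change 0.43, SE 0.07, limma adjusted p = 0.010). Without radiation it stood at 7.91, 7.85 and 8.25 TPM in WT and at 9.61, 11.2 and 10.4 TPM in KO (log2 fold change 0.34, limma adjusted p = 0.054).

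TXNDC17, a cytosolic thioredoxin-like protein, was called with radiation in WT, where it went from 54.9, 54.5 and 55.7 TPM to 66.9, 60.7 and 67.9 TPM (log2 fold change 0.24, SE 0.06, limma adjusted p = 0.048). In KO it went from 57.6, 54.0 and 53.4 TPM to 60.4, 58.2 and 55.0 TPM, which overlapped. GLRX2, a mitochondrial glutaredoxin, was called with radiation in KO, where it went from 7.70, 9.29 and 6.93 TPM to 11.0, 11.9 and 13.1 TPM (log2 fold change 0.54, SE 0.12, limma adjusted p = 0.039). In WT it stood at 8.47, 10.5 and 9.60 TPM without radiation and at 10.9, 10.3 and 8.61 TPM with it. All 3 calls, SESN3 included, were lost with only the 6 libraries compared. The TXNDC17 call was also lost with no variance trend, no filter, a pseudocount of 0.1, a replicate block and either other scaling (median-of-ratios or quantile), and the GLRX2 call with no filter, a replicate block and quantile scaling. The difference between the lines did not pass the threshold for either gene, with an interaction of -0.17 for TXNDC17 and 0.48 for GLRX2 (limma adjusted p = 0.76 and 0.72).

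**Figure D5:**
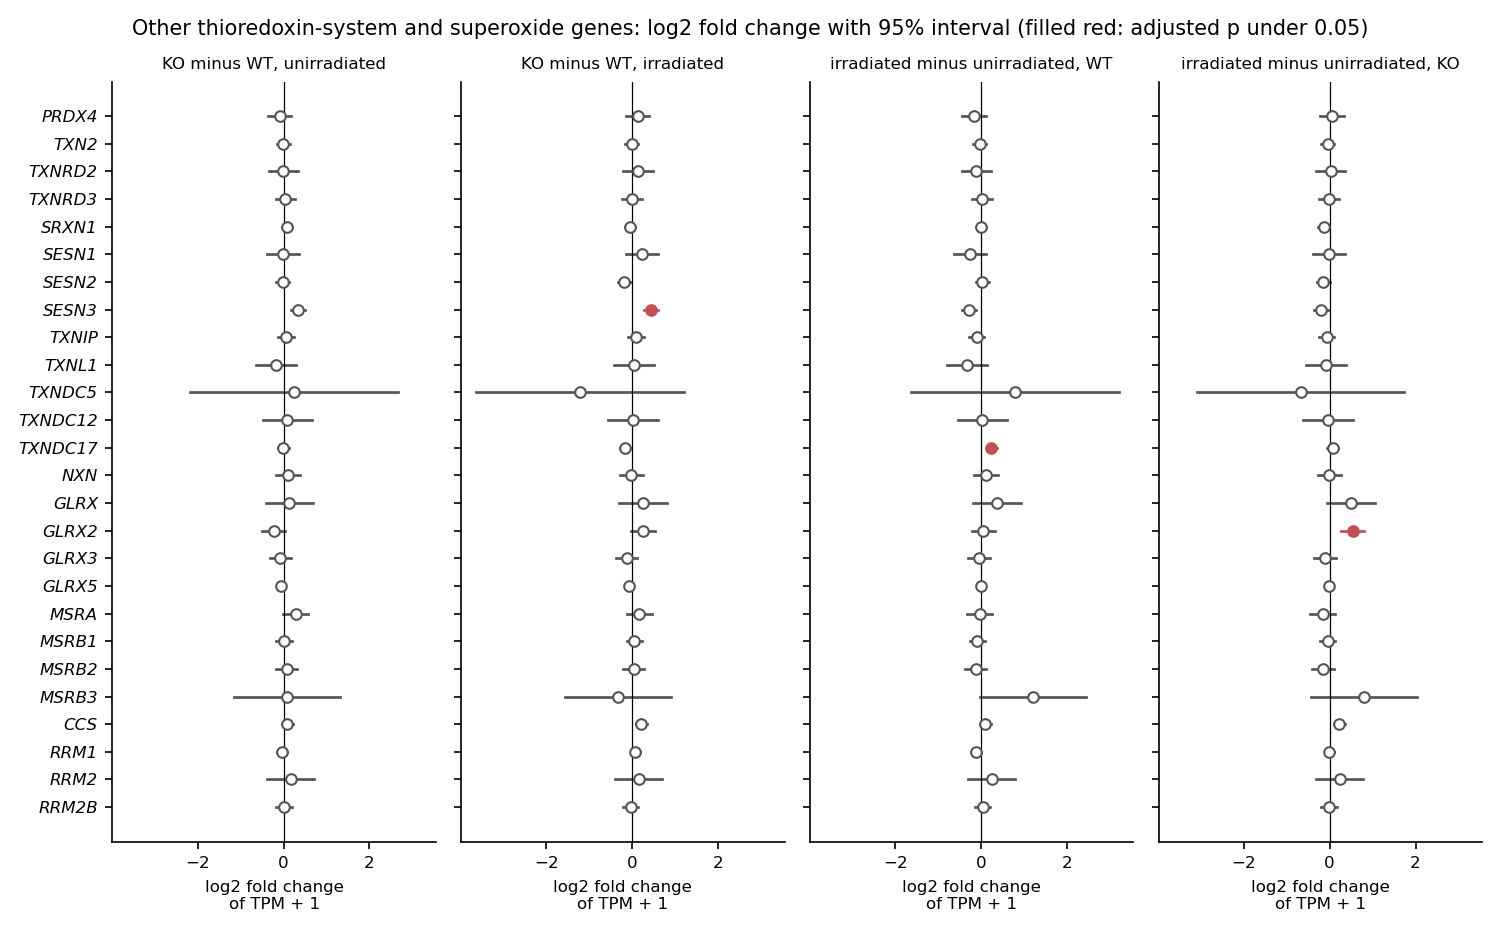
Log2 fold change of TPM + 1 (points) with its 95% interval (bars) for the 26 tested genes of the wider list in 4 comparisons, with adjusted p under 0.05 in filled red. SESN3, TXNDC17 and GLRX2 are each filled in 1 comparison, and TXNDC5 and MSRB3 have the widest intervals.

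No gene of the wider list was called without radiation between KO and WT, or in the interaction, by limma. At an unadjusted p under 0.05 there was 1 of 26 in each. Libraries did not overlap for 3 of 26 genes between KO and WT without radiation and for 9 with it, and for 7 of 26 with radiation in WT and 6 in KO, beside the shares of all genes given above. The median log2 fold change of the list was 0.03 and 0.04 for KO against WT without and with radiation, and 0.00 and -0.02 for radiation in WT and KO. PRDX4 gave log2 fold changes of -0.09 and 0.12 with loss of STING and of -0.17 and 0.05 with radiation. TXN2 lay between -0.04 and -0.01 in all 4. In the averaged contrasts, chosen after seeing the data, SESN3 was called higher in KO (0.38, SE 0.05, limma adjusted p = 0.0015), where 7.43% of all genes were called. With radiation TXNDC17 and CCS were called higher (0.16 for both, limma adjusted p = 0.035 and 0.031) and SESN3 lower (-0.24, limma adjusted p = 0.018), where 10.2% were called. How these averaged calls depend on the processing is not given here.

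The annotation of GENCODE 29 on GRCh38 places CAT on chromosome 11 from 34438925 to 34472062 on the plus strand and PRDX1 on chromosome 1 from 45511036 to 45523047 on the minus strand. PRDX6 lies on chromosome 1 from 173477266 to 173488807 on the plus strand and SOD2 on chromosome 6 from 159669057 to 159745186 on the minus strand. The identifiers of CAT and SOD2 in the data are of another version than in this annotation, so the gene limits used may differ. Whether reads were assigned by strand is not given in the sources used here. PRDX1 overlaps MMACHC on the opposite strand, at 11.9 to 15.5 TPM, and SOD2 overlaps WTAP on the opposite strand, at 99.4 to 119 TPM, which is above every value of SOD2. PRDX2 overlaps HOOK2 on the same strand, at 26.9 to 44.8 TPM. SOD2 also overlaps, on the same strand, a further annotated gene of the same name that was not among the genes quantified. Of 20 pseudogenes named after the members, 13 were listed at 0 in every library and the highest value was 1.53 TPM. The part of these overlaps in the values was not tested.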

How the data were processed

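RNA of 12 FaDu libraries (4 groups of 3) was sequenced after poly(A) selection. The deposited table holds TPM per gene made by the authors, and the submitters' processing notes name HISAT2, StringTie, DESeq2 and hg38, with no versions or roles. TPM values keep no read depth, so counting error is unknown and no count model was used. Genes with TPM of at least 1 in at least 3 libraries were kept, and log2(TPM + 1) was fitted in limma 3.58.1 (R 4.3.3) with 4 group means and a mean-variance trend, over all genes. P-values were adjusted by Benjamini-Hochberg, with 0.05 as threshold, two-sided. No covariate was used, and 8 residual degrees of freedom remained. The table's columns carry the line names NT2, read as WT from the study's non-targeting guide RNA 2, and A63, read as KO from a description of the table supplied with the data. No 2 libraries held identical values. The fit was also run on simulated data with independent normal noise on the fitted scale. Such data meet the assumptions of the model, so that run checked the code only.

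The members, the wider list and the related genes were chosen with earlier results of these data known, and the averaged contrasts after seeing the data. The genes named were the 10 members, TMEM173, family members outside the 10, called genes of the wider list, and the 2 tested genes with the highest Pearson r to a member, of which those bearing on a result are given. Alternatives were another pseudocount (0.1), filter (none, or a mean TPM of at least 5), scaling (median-of-ratios, quantile), variance prior, replicate block, the 6 libraries compared alone, and each library left out.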

Additional observations from a re-analysis of the deposited data

How the results depend on the processing

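CAT kept its direction with radiation in every alternative, from -0.42 to -0.41 in WT and from -0.38 to -0.36 in KO on the log2 scale, and from -0.43 to -0.37 and from -0.40 to -0.32 with any library left out. Its call was kept throughout in WT, and in KO it was lost only with the 6 KO libraries alone (0 members called) and without KO replicate 3. Over all genes tested, same-numbered libraries showed no visible shared deviation from their group means. Correlations of deviations were -0.06 to 0.064 over 18 same-numbered pairs and -0.07 to 0.057 over 36 other pairs. These values cannot show whether the libraries were paired by design, which the labels do not give. A replicate block left 378 genes called for KO against WT with radiation, 315 and 359 for radiation in WT and KO and 1 in the interaction, against 573, 597, 590 and 3 without it, and it ended the wider-list calls with radiation (0 in both lines) and the averaged PRDX6 call (0).

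With only the 6 libraries compared, genes called were 103 and 252 for KO against WT without and with radiation and 166 and 195 for radiation in WT and KO, and the calls of SESN3, TXNDC17 and GLRX2 went to 0. Fewer samples entered these fits. In the interaction 1 gene was called with no variance trend and 7 with no filter. For the wider list, TXNDC17 was not called (0) with no trend, median-of-ratios scaling, no filter, a pseudocount of 0.1 or quantile scaling. GLRX2 was not called (0) with no filter or quantile scaling, and 2 genes were called with a mean TPM of at least 5. For KO against WT without radiation 1 wider gene was called with no trend, a mean of at least 5, median-of-ratios or quantile scaling, and median-of-ratios scaling gave 1 lower call with radiation in WT. In the averaged KO contrast 1 member (CAT) was called with a mean of at least 5 and 2 (CAT and PRDX5) with either scaling. In the averaged radiation contrast PRDX6 was not called (0) with no trend, median-of-ratios or no filter. The causes were not tested.

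Under median-of-ratios scaling the sign turned for differences near 0, none of which was called. On the log2 scale they became 0.00845 for PRDX2 and 0.0156 for TXN (KO against WT, unirradiated), 0.00623 for PRDX6 (KO against WT, irradiated) and -0.011 for TXNRD1 (radiation in KO), and quantile scaling gave 0.0149 for TXN. With each library left out in turn, genes called ranged from 172 to 292 and 313 to 542 for KO against WT without and with radiation, from 242 to 526 and 268 to 553 for radiation in WT and KO, from 1 to 9 in the interaction, and from 788 to 951 and 1142 to 1355 for the averaged contrasts of KO and radiation. The wider list then gave 0 to 1 higher calls with radiation in WT and 0 to 2 in KO, and the averaged contrasts 0 to 1 members higher. The members' median log2 fold change ranged from -0.0165 to 0.0721 for KO against WT with radiation and from -0.027 to 0.0452 in the interaction. Signs turned in some of these fits for uncalled differences. Without radiation, KO against WT ranged from -0.228 to 0.21 for PRDX2, -0.0148 to 0.0334 for PRDX3 and -0.0576 to 0.0506 for TXN. With radiation it ranged from -0.0347 to 0.0139 for PRDX6, -0.00854 to 0.214 for SOD1 and -0.255 to 0.0351 for SOD2. Radiation in WT ranged from -0.232 to 0.12 for PRDX2, -0.0222 to 0.222 for SOD2 and -0.135 to 0.00944 for TXNRD1, and radiation in KO from -0.254 to 0.142 for PRDX1, -0.241 to 0.0804 for PRDX2, -0.0257 to 0.0247 for PRDX3, -0.0225 to 0.172 for SOD1 and -0.00273 to 0.0194 for TXNRD1. The interaction ranged from -0.223 to 0.173 for PRDX1 and -0.252 to 0.186 for PRDX2.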
